A study of Mus musculus with 6 samples.

Results

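The immunoglobulin constant genes were followed by isotype in RNA-seq of splenic follicular helper T (Tfh) cells. The members were 10 genes picked by symbol out of the 53379 genes counted, namely the heavy chain constant genes Ighm, Ighd, Ighg3, Ighg1, Ighg2b, Ighg2c, Ighe and Igha, the kappa light chain constant gene Igkc, and Jchain. No threshold on measured values chose them, but earlier results of these data were known when they were listed. Tfh cells were sorted as live TCRβ+ CD4+ CXCR5+ PD1+ cells from the spleens of female mice 6 to 8 weeks old, on day 7 after immunization with NP-CGG in complete Freund's adjuvant. The 3 Prdm1-CKO mice carried Prdm1 fl/fl and CD11c-CRE, so that Prdm1, which encodes the transcription factor BLIMP-1, was deleted in CD11c-high dendritic cells and not by design in T or B cells. The 3 CTL mice carried either Prdm1 fl/fl without CD11c-CRE or Prdm1 +/+ with it, and the labels do not say which mouse had which. The Prdm1-CKO mice are labelled KO in their titles but KD in the genotype label. Mice are numbered here by the replicate number in their titles. Each mouse gave 1 Smart-seq2 library, in which reads were counted per gene.

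An antibody consists of heavy and light chains, each with a variable and a constant part, and the heavy chain constant gene in use sets the isotype. Naive B cells make IgM (Ighm) and IgD (Ighd) from the same rearranged gene by splicing. Class-switch recombination replaces Ighm and Ighd with a constant gene further downstream, so that the cell makes IgG, IgE or IgA. T follicular helper cells drive this step in germinal centers through CD40L and cytokines, yet they do not make antibody themselves. Plasma cells hold very large amounts of immunoglobulin mRNA per cell, and B cells much less. In bulk RNA, fewer cells of a type and less RNA per cell cannot be told apart, and counts per gene do not separate the membrane from the secreted form of a chain.

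On GRCm38 the heavy chain genes lay on the minus strand of chromosome 12. Ighm (ENSMUSG00000076617.9) came first, from 113422730 down to 113418558, and Igha (ENSMUSG00000095079.6) came last, from 113260236 down to 113254830. Between them stood Ighd, Ighg3, Ighg1, Ighg2b, Ighg2c and Ighe in this order. Igkc (ENSMUSG00000076609.2) lay on chromosome 6, plus strand, from 70726435 to 70726966, and Jchain (ENSMUSG00000067149.6) on chromosome 5, minus strand, from 88519809 to 88527891.

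The IgG subclass genes resemble each other, and the reads were 25 bases per mate. Of the 25-base windows of their annotated transcripts, Ighg2c shared 20.4% with another gene, Ighg2b 11.9%, Ighg3 5.23% and Ighg1 2.88%. The partner with the most shared windows was Ighg2b for Ighg2c, with 248 windows, and these genes had an identical run of 78 bases. Ighd shared 1.01% and Jchain 0.494%, while Ighm, Igha, Ighe and Igkc shared no such window with any other annotated transcript. Reads from the shared stretches of Ighg2b and Ighg2c could be lost or split, so their subclass values are uncertain to that extent. The hinge exons are shown because none of their bases fell in a shared window, so that a read inside them tells the subclasses apart. They are given 5′ to 3′ on the coding strand (GRCm38, minus strand, GENCODE M21), with capitals for the codons of cysteine, the residue that ties the heavy chains to each other at the hinge.
Ighg3 hinge, chr12:113360529-113360576: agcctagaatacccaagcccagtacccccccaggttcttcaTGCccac
Ighg1 hinge, chr12:113329844-113329882: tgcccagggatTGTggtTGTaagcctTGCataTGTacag
Ighg2b hinge, chr12:113307261-113307326: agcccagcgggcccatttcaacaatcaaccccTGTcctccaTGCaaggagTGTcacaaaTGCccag
Ighg2c hinge, chr12:113288263-113288325: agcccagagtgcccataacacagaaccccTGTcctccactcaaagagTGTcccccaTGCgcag
The Ighg1 and Ighg2b hinges held 4 cysteine codons each, the Ighg2c hinge 3 and the Ighg3 hinge 1.

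Ighm and Igha, the isotypes with the most counts here, are also those that form polymers. The tailpiece at the end of the secreted chain carries a cysteine through which IgM and IgA bind J chain, the product of Jchain. The last 54 coding bases of the secreted forms are shown for that reason, with this cysteine codon, the last but one, in capitals.
Ighm tailpiece, chr12:113420870-113420923: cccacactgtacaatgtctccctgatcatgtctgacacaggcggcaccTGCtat
Igha tailpiece, chr12:113258771-113258824: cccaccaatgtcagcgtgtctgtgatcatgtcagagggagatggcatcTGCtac
The tailpieces were identical at 35 of 54 bases.

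Total counts per mouse ranged from 7147601 to 16973392, and the members took from 0.304% to 0.720% of them. The sort's defining T cell gene Cd4 was detected at 774 to 1061 CPM (counts scaled to library size, with TMM factors) in all 6 mice. CTL mouse 2 stood apart from the other mice along the first principal component (56.4% of the variance), at 134.6 against -29.1 to -24.0, and several values below are also given without it. Intervals given below are Wilson 95% intervals, and they cover counting error only, with each read taken as independent.

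Ighm made up most of the heavy chain constant counts in every mouse, Igha came second in every mouse, the 4 IgG genes together held at most 2.25%, and Ighe had no count. The share of Ighm was 97.5%, 86.3% and 63.9% in CTL mice 1 to 3. It was 91.5%, 83.7% and 81.8% in Prdm1-CKO mice 1 to 3. The 3 Prdm1-CKO mice lay inside the range of the CTL mice, which ran from a nearly pure IgM library in CTL mouse 1 to a mixed one in CTL mouse 3. The means were 82.6 ± 17.1% in CTL and 85.6 ± 5.15% in Prdm1-CKO mice (SD, n = 3 each), a difference of 3.07 percentage points (two-sided exact permutation test over mice, p = 0.9, the smallest p for 3 against 3 being 0.1). Without CTL mouse 3 the difference was -6.28 points, so its direction rested on that mouse.

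IgA is the isotype of mucosal surfaces, and its plasma cells arise mostly in gut-associated tissue. The share of Igha was 1.92%, 13.1% and 33.5% in CTL mice 1 to 3, with Wilson intervals of 1.80% to 2.03%, 12.7% to 13.6% and 33.0% to 34.1%. It was 6.23%, 14.2% and 15.7% in Prdm1-CKO mice 1 to 3. These intervals were far narrower than the spread between mice of the same group, but they take reads as independent and so understate the sampling error by an unknown amount. The CTL mice alone spanned the values of all the others. The mean share was 16.2 ± 16.0% in CTL and 12.0 ± 5.07% in Prdm1-CKO mice (SD, n = 3 each). The difference of -4.17 points (exact permutation p = 0.9) turned to 4.49 points without CTL mouse 3.

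**Figure D1:**
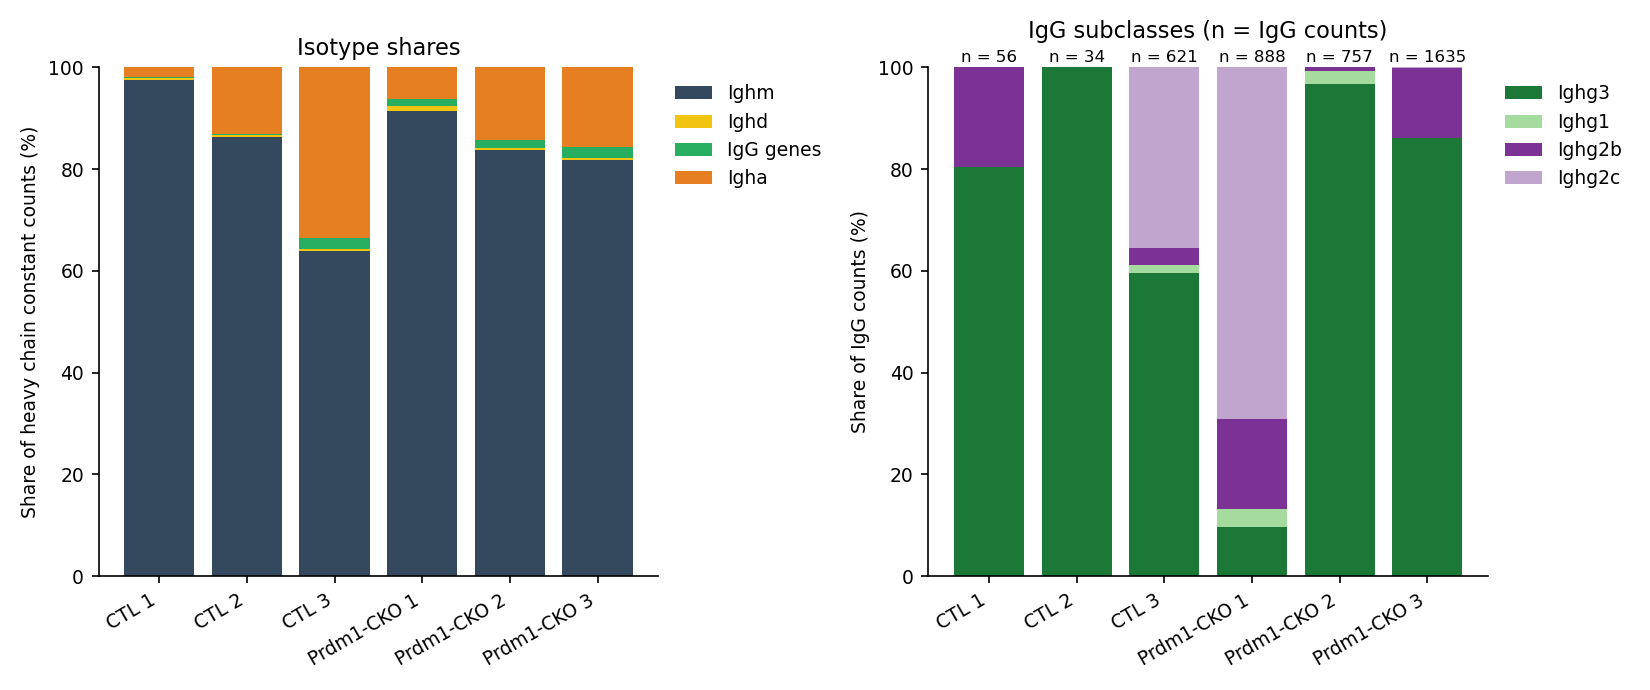
Isotype shares in each mouse. Left, percent of heavy chain constant counts taken by Ighm, Ighd, the IgG genes and Igha. Right, percent of the IgG counts taken by each subclass, with the number of IgG counts above each bar. Ighm leads in all 6 mice, from 63.9% to 97.5%, and Ighg3 leads the IgG genes in every mouse except Prdm1-CKO mouse 1, where Ighg2c holds 69.0%.

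The IgG genes together took 0.102%, 0.172% and 2.25% of the heavy chain counts in CTL mice 1 to 3 and 1.44%, 1.70% and 2.11% in Prdm1-CKO mice 1 to 3. CTL mice 1 and 2 were low, with 56 and 34 IgG counts, while CTL mouse 3 was the highest of all mice. The difference of 0.908 points was within the spread (exact permutation p = 0.4). It depended on single CTL mice, being 1.61 points without CTL mouse 3, when the groups no longer overlapped (exact permutation p = 0.1), and 0.538 points without CTL mouse 1.

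Among the switched isotypes alone, which leaves Ighm and Ighd out, the groups did not overlap. The IgG genes held 5.06%, 1.29% and 6.29% of the switched counts in CTL mice 1 to 3. They held 18.8%, 10.7% and 11.9% in Prdm1-CKO mice 1 to 3, and Igha held the rest, since Ighe had no count. The mean was 4.21 ± 2.60% in CTL and 13.8 ± 4.35% in Prdm1-CKO mice (SD, n = 3 each). The difference of 9.56 points had an exact permutation p of 0.1, the smallest that the design allows, and 0.6 after Benjamini-Hochberg adjustment over the 6 switched isotypes. It stayed between 7.07 and 11.1 points when each mouse was left out in turn.

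Ighg3, whose antibodies arise mostly in T cell-independent responses, held most of the IgG counts in 5 of 6 mice. Its counts were 45, 34 and 370 in CTL mice 1 to 3 and 86, 732 and 1407 in Prdm1-CKO mice 1 to 3. It thus varied 31.3-fold between the lowest and the highest mouse on the CPM scale, with a low and a high mouse in either group. Its edgeR log2 fold change was 1.53 (SE 1.23, adjusted p = 0.996). That value was 4.06 without CTL mouse 3 (unadjusted p = 0.0101, adjusted p = 0.760 in edgeR) and 0.96 without Prdm1-CKO mouse 3.

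Ighg2c, the subclass that interferon gamma favours in strains that carry it, had counts in 3 of 6 mice. It had 221 counts in CTL mouse 3 and 613 in Prdm1-CKO mouse 1, 3 in Prdm1-CKO mouse 3, and 0 in the remaining mice. It held 35.6% of the IgG counts in CTL mouse 3 and 69.0% in Prdm1-CKO mouse 1. It did not pass the expression filter and was not tested. In CTL mice 1 and 2 the count of 0 allows a share of the heavy chain counts of up to 0.00547% and 0.0151%.

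Ighg2b had 11, 0 and 20 counts in CTL mice 1 to 3 and 157, 5 and 225 in Prdm1-CKO mice 1 to 3. Prdm1-CKO mouse 2 lay among the CTL mice, and the other Prdm1-CKO mice lay above them. Its log2 fold change of 2.79 (SE 1.35) had an unadjusted p of 0.0721 and an adjusted p of 0.996 in edgeR. Left-out mice moved it between 1.96, without Prdm1-CKO mouse 3, and 4.28, without CTL mouse 3 (unadjusted p = 0.0303, adjusted p = 0.760 in edgeR).

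Ighg1, the subclass that IL-4 favours, was the IgG gene with the fewest counts. It had 0, 0 and 10 counts in CTL mice 1 to 3 and 32, 20 and 0 in Prdm1-CKO mice 1 to 3. The groups overlapped, with mice at 0 in both, and the log2 fold change of 1.50 had an SE of 1.75 (edgeR, adjusted p = 0.996). Left-out mice moved that value between 0.79 and 7.06 (0.91 without CTL mouse 2), the highest being that without CTL mouse 3, when no CTL mouse with a count remained. The log2 ratio of Ighg2c to Ighg1 gave no usable comparison, since CTL mice 1 and 2 had no count of either gene.

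Ighe, the constant gene of IgE, had 0 counts in all 6 mice. These zeros allow a share of up to 0.0151% of the heavy chain counts in CTL mouse 2, which had the fewest heavy chain counts, and up to 0.00387% in Prdm1-CKO mouse 3, which had the most.

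Levels were read next, as CPM. Ighm was at 3665, 2026 and 2609 CPM in CTL mice 1 to 3 and at 3184, 3787 and 4345 CPM in Prdm1-CKO mice 1 to 3. The groups overlapped only through CTL mouse 1, which exceeded Prdm1-CKO mouse 1. The log2 fold change was 0.45 (SE 0.22, unadjusted p = 0.0734, adjusted p = 0.996 in edgeR), and it was 0.26 without CTL mouse 2 and 0.69 without CTL mouse 1.

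Ighd was the only member tested in which all Prdm1-CKO mice exceeded all CTL mice, an order seen in 4.56% of the 14555 genes tested. It was at 17.3, 8.65 and 15.1 CPM in CTL mice 1 to 3 and at 29.7, 19.5 and 25.7 CPM in Prdm1-CKO mice 1 to 3. The log2 fold change was 0.86 (SE 0.32, unadjusted p = 0.0279, adjusted p = 0.996 in edgeR), and it was 0.61 without CTL mouse 2. IgD marks mature naive B cells, which coexpress it with IgM. The counts of Ighd per count of Ighm were 0.00473, 0.00427 and 0.00578 in CTL mice 1 to 3 and 0.00933, 0.00516 and 0.00591 in Prdm1-CKO mice 1 to 3. This ratio was highest in Prdm1-CKO mouse 1, and the groups overlapped (exact permutation p = 0.2, 0.4 after adjustment over 6 ratios).

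Jchain was at 383, 254 and 382 CPM in CTL mice 1 to 3 and at 363, 549 and 636 CPM in Prdm1-CKO mice 1 to 3. Prdm1-CKO mouse 1 lay among the CTL mice. The log2 fold change was 0.60 (SE 0.24, unadjusted p = 0.0377, adjusted p = 0.996 in edgeR), and it was 0.42 without CTL mouse 2 (unadjusted p = 0.102 in edgeR). Against the heavy chains Jchain varied little, with 0.0934 to 0.108 counts per heavy chain count in CTL and 0.104 to 0.121 in Prdm1-CKO mice (exact permutation p = 0.2, adjusted p = 0.4).

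Igha was at 72.0, 308 and 1370 CPM in CTL mice 1 to 3 and at 217, 642 and 832 CPM in Prdm1-CKO mice 1 to 3. It varied 19.0-fold among the CTL mice alone. Its log2 fold change was -0.05 (SE 0.89, adjusted p = 0.998 in edgeR), and it was 1.58 without CTL mouse 3.

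**Figure D2:**
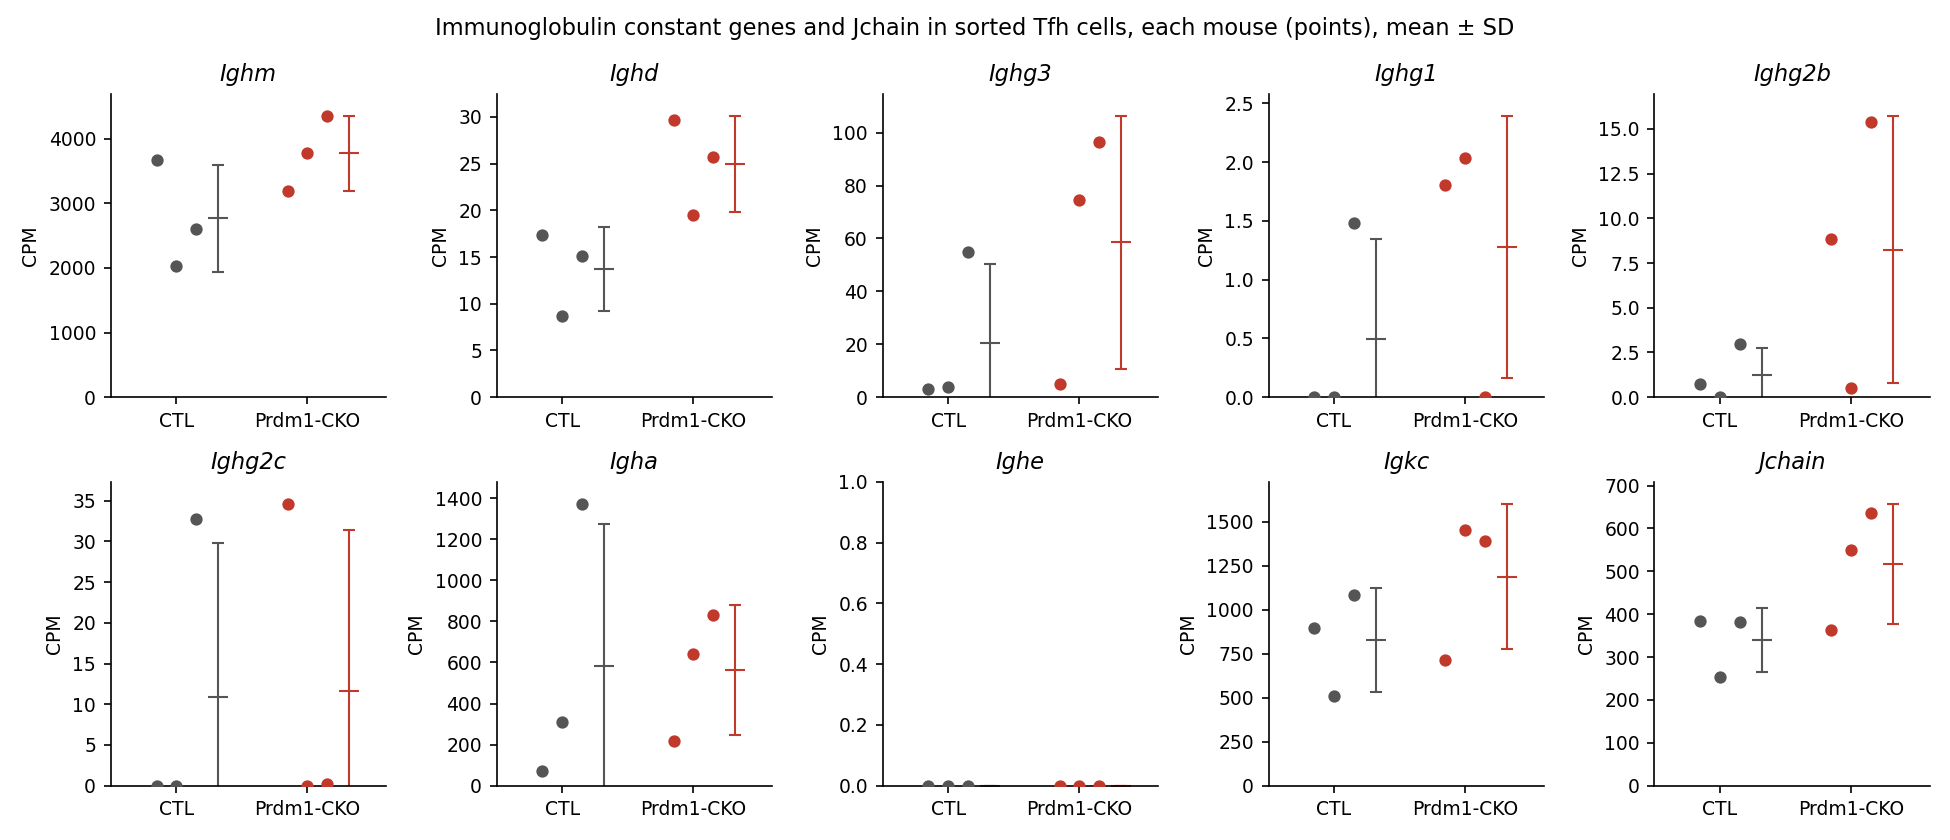
Level of each member in CPM (scaled with TMM factors, linear axes from 0), with 1 point per mouse and the mean ± SD of each group beside the points, bars being drawn down to 0 at most. For Ighd the Prdm1-CKO mice all lie above the CTL mice, at 19.5 to 29.7 against 8.65 to 17.3 CPM, whereas Igha, Ighg3 and Ighg2c have high and low mice in both groups and Ighe lies at 0.

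Kappa is the light chain of most mouse antibodies. Igkc was at 895, 507 and 1081 CPM in CTL mice 1 to 3 and at 715, 1454 and 1392 CPM in Prdm1-CKO mice 1 to 3. Prdm1-CKO mouse 1 lay below both CTL mice 1 and 3, so the groups overlapped (log2 fold change 0.52, SE 0.33, adjusted p = 0.996 in edgeR). Without CTL mouse 2 the fold change was 0.25. Counts of Igkc per heavy chain count ranged from 0.216 to 0.265 in CTL and from 0.205 to 0.321 in Prdm1-CKO mice (exact permutation p = 0.7).

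The lambda constant genes, which are not members, had larger fold changes than Igkc. Iglc1, Iglc2 and Iglc3 had log2 fold changes of 1.63 (SE 0.49), 0.91 (SE 0.37) and 1.38 (SE 0.61), with unadjusted p of 0.0100, 0.0378 and 0.0512 and an adjusted p of 0.996 each in edgeR. Without Prdm1-CKO mouse 2 the value of Iglc2 was 0.54, and that of Iglc3 was 0.56 without Prdm1-CKO mouse 3 and 2.12 without CTL mouse 1. Iglc4 had 0 counts in the CTL mice and 1, 3 and 7 in the Prdm1-CKO mice. Counts of Igkc per summed lambda count were 5.15, 7.48 and 8.42 in CTL mice 1 to 3 and 3.26, 5.06 and 3.59 in Prdm1-CKO mice 1 to 3. On these counts the groups did not overlap, though CTL mouse 1 and Prdm1-CKO mouse 2 were close. With counts per kb of exon they overlapped, since the log2 ratio was 2.31 in CTL mouse 1 and 2.35 in Prdm1-CKO mouse 2 (exact permutation p = 0.2). The mean log2 ratio was lower by 0.82 in Prdm1-CKO mice (-0.82 as Prdm1-CKO minus CTL, exact permutation p = 0.1, the smallest possible, and 0.4 after adjustment over 6 ratios). The difference on counts stayed between -1.03 and -0.67 when each mouse was left out in turn. Iglc2 and Iglc3 shared 130 of their 25-base windows, so their separate values are uncertain.

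**Figure D3:**
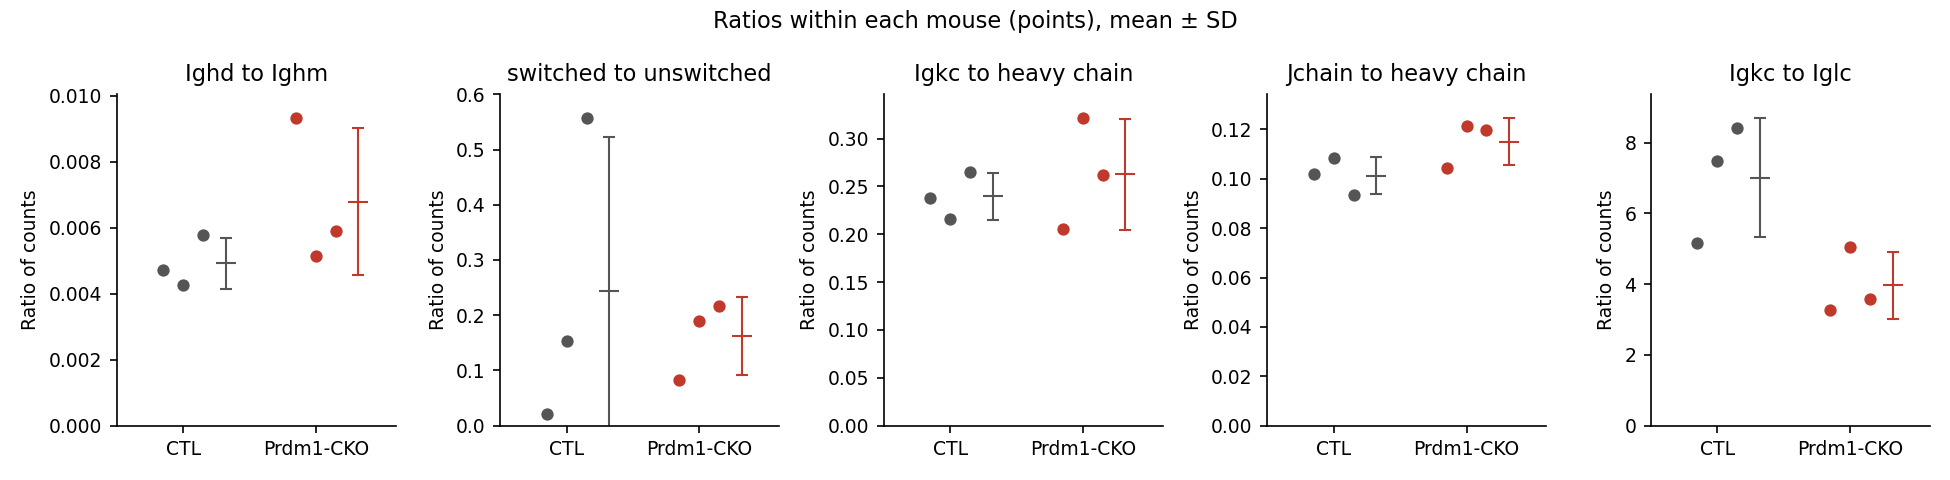
Ratios of counts within each mouse, with 1 point per mouse and the mean ± SD beside the points, on linear axes from 0. Switched stands for the IgG genes, Igha and Ighe, and unswitched for Ighm and Ighd. Jchain per heavy chain count stays within 0.0934 to 0.121 while the switched to unswitched ratio runs from 0.0206 to 0.557, and of the ratios shown only Igkc to Iglc separates the groups, on counts but not on counts per kb.

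In the edgeR fit over all genes, 8 of the 10 members passed the expression filter, and 0 of them had an adjusted p under 0.05, as did 0% of the 14555 genes tested. DESeq2 also called 0 members, beside 0.0346% of the 26030 genes it tested. At an unadjusted p under 0.05, 2 members were higher in Prdm1-CKO mice (Ighd and Jchain), beside 0.928% of all genes tested, and 0 members were lower, beside 1.42% of all genes. DESeq2 had the same 2 members higher at an unadjusted p under 0.05, beside 1.01% of its genes. Of the 8 members tested, 7 had a log2 fold change above 0, all but Igha, beside 51.1% of all genes tested. The median of the members was 0.73 against 0.01 over all genes tested. The members were measured in the same 6 libraries and are not replicates of each other. Without CTL mouse 2, 9 members passed the filter and 7 lay above 0, beside 48.6% of all genes tested. The median of the members was then 0.42 against -0.01 over all genes. In that fit 1 member (Ighd) was higher at an unadjusted p under 0.05, beside 1.43% of the 15705 genes tested in edgeR.

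**Figure D4:**
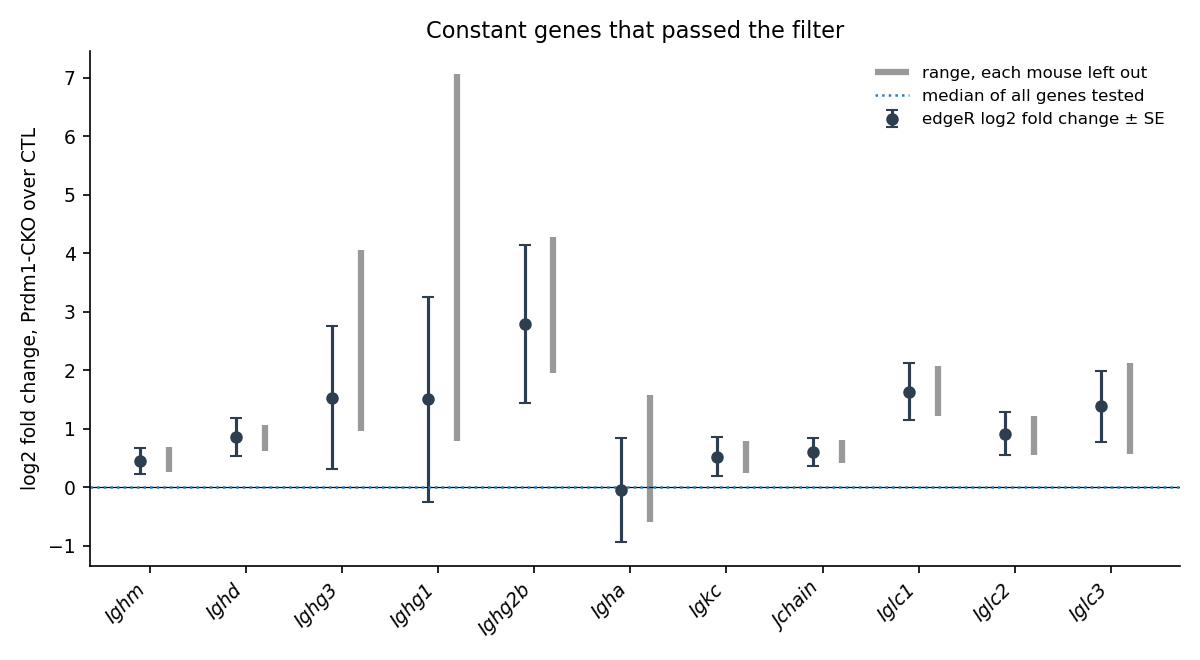
log2 fold change of Prdm1-CKO over CTL for the constant genes that passed the expression filter (points, edgeR, bars ± SE) beside the range of the same value when each mouse was left out in turn (grey). The dotted line is the median of all genes tested, at 0.01. Ighm, Ighd, Igkc and Jchain lie between 0.45 and 0.86 with narrow bars, and Igha at -0.05 has the only grey range that crosses 0.

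The log2 CPM of the summed heavy chain constant genes differed by 0.41 between the group means, that of Igkc by 0.52 and that of all members by 0.44 (exact permutation p = 0.3 for each). That of the summed lambda genes differed by 1.34 (exact permutation p = 0.1), and p was 0.3 for all 4 sums after Benjamini-Hochberg adjustment. Without CTL mouse 2 these differences were 0.16 for the heavy chain genes, 0.20 for Igkc, 0.19 for all members and 0.96 for lambda (exact permutation p = 0.5, 0.6, 0.5 and 0.2). The mean log2 ratio of switched to unswitched counts was higher in Prdm1-CKO mice by 0.31, while the mean switched share was lower by 3.26 points (-3.26 as Prdm1-CKO minus CTL). These measures differ in sign, and on both CTL mouse 1 was lowest and CTL mouse 3 highest (exact permutation p = 0.8 and 0.9).

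The within-group SD of log2 CPM was 0.34 for Ighm, 0.43 for Ighd, 0.38 for Jchain and 0.57 for Igkc, beside a median of 0.40 over all genes tested. It was 1.67 for Igha, 2.01 for Ighg1, 2.28 for Ighg2b and 2.31 for Ighg3. Switched isotypes thus stood among the most variable genes, with a larger SD than 95.7% (Igha), 98.1% (Ighg1), 99.2% (Ighg2b) and 99.2% (Ighg3) of the genes tested, while Ighm exceeded 42.1%. Ighg1 and Ighg2b had few counts, whereas Igha had at least 1051 counts in every mouse.

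Between genes, levels were compared as CPM per kb of exon. The order of the means was Igkc (1893), Ighm (1733), Igha (215), Jchain (170), Ighg3 (15.8), Ighd (10.2), Ighg2c (8.48), Ighg2b (1.77), Ighg1 (0.342) and Ighe (0). Ighm lay above Igha, and Jchain above Ighg3, in 6 of 6 mice without overlap of their ranges. Igkc and Ighm could not be ordered, each being the higher in 3 of 6 mice, and Igha overlapped Jchain, as did the neighbours from Ighg3 down.

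The variable genes offered another view of the same chains. Counts on all heavy chain variable genes ranged from 1572 to 9442 per mouse. The constant genes had from 8.22 to 12.6 counts per variable heavy chain count, with the highest value in CTL mouse 2 and the other mice at 9.75 or less. Igkc had from 2.22 to 2.48 counts per kappa variable count in all 6 mice. The ratio of kappa constant to variable counts was thus nearly fixed although Igkc itself varied 2.87-fold on the CPM scale.

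By the smallest root mean square difference of centred log2 CPM over the 6 mice, the genes outside the immunoglobulin biotypes most like Ighm were Pilrb1 (0.06), Slc2a6 (0.08) and Hist1h2ac (0.09), where the median over the 10665 genes compared was 0.45. Those most like Jchain were Borcs7 (0.11), Dph7 (0.14) and Gm14029 (0.14), and those most like Igkc were Zfp566 (0.15), Prdm4 (0.16) and Slamf9 (0.17). None was a B cell marker of the list below, and with 6 mice such likeness is a description only.

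Markers of the cells that make antibody stand beside these values. Of 15 B cell markers, 0 passed an unadjusted p of 0.05, beside 0.928% of all genes tested that were higher and 1.42% that were lower. Of the same 15, 14 had a log2 fold change above 0, beside 51.1% of all genes tested, and the median was 0.79. In 4 of them the lowest Prdm1-CKO value lay above the highest CTL value, beside 4.56% of all genes tested, and in 0 the reverse held. Separation of the groups was thus not particular to Ighd. The summed level of the 15 markers was 121 to 227 CPM in CTL and 195 to 297 CPM in Prdm1-CKO mice. Cd79b, a signalling chain of the B cell receptor, was at 44.0, 11.7 and 35.4 CPM in CTL mice 1 to 3 and at 58.9, 44.2 and 54.4 CPM in Prdm1-CKO mice 1 to 3. Cd22, a B cell inhibitory receptor, was at 35.1 to 61.1 CPM in CTL and 35.7 to 63.3 CPM in Prdm1-CKO mice. In CTL mouse 2 the B cell genes Pax5, Ebf1, Spib, Blnk, Fcrla and Fcer2a had 0 counts, although the same library had 17100 counts of Ighm (these genes were chosen after their values were seen). The other markers of the list did have counts in CTL mouse 2, from 19 for Cr2 to 516 for Cd22. Cd22, at 61.1 CPM, and Vpreb3, at 2.61 CPM, were higher there than in the other CTL mice. The members' summed CPM was 15.3 to 37.3 times that of the B cell markers, with the lowest value in Prdm1-CKO mouse 1 and the highest in CTL mouse 3. The part of B cells in the members' levels was not tested.

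Of 14 plasma cell markers, 11 had a log2 fold change above 0, beside 51.1% of all genes tested, with a median of 0.15. In 5 of them the lowest Prdm1-CKO value lay above the highest CTL value, beside 4.56% of all genes tested, and in 0 the reverse held. The summed level of the 14 markers was 595 to 736 CPM in CTL and 704 to 787 CPM in Prdm1-CKO mice. At an unadjusted p under 0.05 in edgeR, 0 were higher and 1 was lower, beside 0.928% and 1.42% of all genes tested. The lower gene was Pou2af1, a B cell coactivator, with a log2 fold change of -0.59 (SE 0.25, adjusted p = 0.996 in edgeR). Several of these genes serve secretion or activation in T cells too, such as Xbp1, Irf4 and Prdm1. The more restricted Sdc1 and Tnfrsf17, which encode the plasma cell surface proteins CD138 and BCMA, had 0 counts in CTL mouse 2. Elsewhere Sdc1 was at 4.93 to 10.5 CPM and Tnfrsf17 at 0.451 to 4.47 CPM (both chosen after their values were seen). Fkbp11 and Eaf2 also had 0 counts in CTL mouse 2. The other markers of the list had counts there, from 20 for Derl3 to 1234 for Xbp1, and Txndc5, at 127 CPM, lay between CTL mice 1 and 3. The part of plasma cells was not tested.

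Macrophages take up other cells and carry Fc receptors. Of 14 macrophage markers, all 14 had a log2 fold change above 0, beside 51.1% of all genes tested, with a median of 0.45. At an unadjusted p under 0.05 in edgeR, 2 were higher, beside 0.928% of all genes tested. These were Cd5l (0.92, SE 0.30) and the complement gene C1qc (1.49, SE 0.57), with adjusted p = 0.996 in edgeR. In these 2 genes alone of the list the lowest Prdm1-CKO value lay above the highest CTL value, beside 4.56% of all genes tested, and in 0 genes the reverse held. The summed level of the 14 markers was 618 to 1795 CPM in CTL and 1293 to 1764 CPM in Prdm1-CKO mice. CTL mouse 1 was the highest and CTL mouse 2 the lowest, and CTL mouse 3, the mouse with the most Igha, was at 887 CPM. The part of macrophages in the members' levels was not tested. The 15 Tfh markers had a median of -0.04. At an unadjusted p under 0.05 in edgeR, 1 of them was lower, beside 1.42% of all genes tested. This was Cd4 (-0.29, SE 0.12, adjusted p = 0.996 in edgeR). For Cd4 all Prdm1-CKO mice, at 774 to 847 CPM, lay below all CTL mice, at 896 to 1061 CPM, and the share of all genes in that order was not counted.

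**Figure D5:**
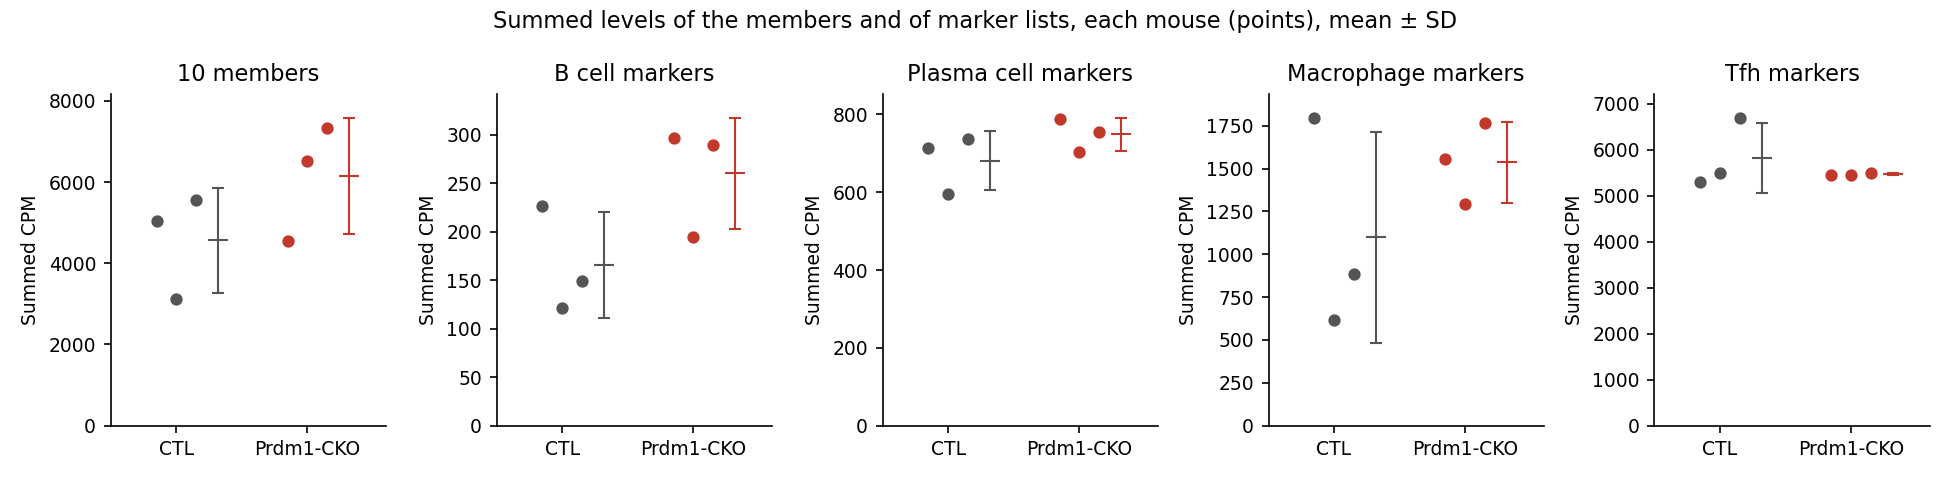
Summed CPM of the 10 members and of the B cell, plasma cell, macrophage and Tfh marker lists, with 1 point per mouse and the mean ± SD beside the points, on linear axes from 0. CTL mouse 2 is the lowest mouse for the members (3107 CPM) and for the B cell (121), plasma cell (595) and macrophage (618) lists, and the Tfh list lies between 5291 and 6685 CPM in all mice.

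Genes of the class switch machinery were detected in all sorted samples. Of 28 genes of the switch machinery, 0 passed an unadjusted p of 0.05, beside 0.928% of all genes tested that were higher and 1.42% that were lower. Of the same 28, 12 lay above 0, beside 51.1% of all genes tested, and 16 below, with a median log2 fold change of -0.05. Those with the most counts were Parp1, a DNA damage sensor, at 146 ± 29.5 CPM in CTL and 189 ± 28.9 CPM in Prdm1-CKO mice, and Supt5, a transcription elongation factor, at 127 ± 38.6 and 138 ± 23.9 CPM (SD, n = 3 each).

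The T cell signals that direct switching did not separate the groups either. Of 9 genes tested among the switch cytokines and CD40L, 0 passed an unadjusted p of 0.05, beside 0.928% of all genes tested that were higher and 1.42% that were lower. Of the same 9, 5 lay above 0, beside 51.1% of all genes tested, and 4 below. Cd40lg was at 91.4 ± 15.2 CPM in CTL and 75.1 ± 14.7 CPM in Prdm1-CKO mice, and Il21, the helper cytokine of germinal centers, at 21.3 ± 5.87 and 22.2 ± 17.1 CPM (SD, n = 3 each). By mouse, Il21 was at 14.5, 24.5 and 24.9 CPM in CTL and at 41.8, 14.3 and 10.4 CPM in Prdm1-CKO mice 1 to 3. Prdm1-CKO mouse 1 thus lay above all CTL mice, and Prdm1-CKO mice 2 and 3 lay below them.

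Receptors that bind immunoglobulin pointed both ways. Of 15 tested, 11 had a log2 fold change above 0, beside 51.1% of all genes tested. At an unadjusted p under 0.05 in edgeR, 0 were higher and 2 were lower, beside 0.928% and 1.42% of all genes tested. The lower genes were Fcer1a and Ms4a2, which encode the alpha and beta chains of the high-affinity IgE receptor. Fcer1a was at 6.30, 12.1 and 12.1 CPM in CTL mice 1 to 3 and at 2.65, 3.66 and 3.97 CPM in Prdm1-CKO mice 1 to 3, without overlap. The share of all genes with every Prdm1-CKO mouse below every CTL mouse was not counted. Fcer1a had a log2 fold change of -1.57 (SE 0.44, unadjusted p = 0.00699, adjusted p = 0.996 in edgeR). Ms4a2 was at 23.2, 41.1 and 5.03 CPM in CTL and at 6.20, 8.13 and 8.70 CPM in Prdm1-CKO mice, so that CTL mouse 3 lay below all Prdm1-CKO mice (-1.59, SE 0.63, adjusted p = 0.996 in edgeR). Fcer1g, which encodes the gamma chain that this receptor shares with other Fc receptors, had a log2 fold change of 0.38 (SE 0.27, adjusted p = 0.996 in edgeR) and was chosen after its values were seen. No library held a count of Ighe, the gene of their ligand.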

How the data were processed

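RNA of sorted splenic Tfh cells from 3 CTL and 3 Prdm1-CKO mice was measured, 1 Smart-seq2 library per mouse. The authors deposited raw counts per gene without normalization, made with featureCounts from paired reads of 25 bases on GRCm38. The submitters' processing notes name STAR 2.4.2a, and strandedness, multiply aligned reads and the counting of mates are not given in the sources used here. Identifiers were mapped to symbols with GENCODE M21 (GRCm38), which holds 53274 of the 53379 identifiers. The main test was edgeR 4.0.16 (R 4.3.3) on these counts, with TMM, filterByExpr, the quasi-likelihood F test and Benjamini-Hochberg adjustment over the 14555 genes tested. DESeq2 1.42.0 was an alternative. Shares, ratios and summed levels were compared by two-sided exact permutation tests over mice, and 0.5 was added to both sides of a ratio with a count of 0. Wilson intervals were computed with scipy 1.17.1. A count of 3 was the floor behind limits from zeros. Windows of 25 bases were compared with all GENCODE M21 transcripts, and the genome outside them was not searched. The fit was checked on simulated data.

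The members and lists were chosen with earlier results of these data known. Named were all members, the lambda constant genes, genes of the lists with an unadjusted p under 0.05 (in lists with none, those with the most counts), and the 3 genes most like Ighm, Igkc and Jchain with a mean of at least 5 CPM. Of 29 switch machinery genes, 1 symbol had no match and was not analysed here. Another is not reported here by itself and stays in the counts over its list. P-values measure the spread between these mice, and the labels give no batch. PCR reads without molecular identifiers are not independent molecules.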

Additional observations from a re-analysis of the deposited data

How the results depend on the processing

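No member passed an adjusted p of 0.05 under any alternative run (DESeq2, its size factors in edgeR, the filter dropped or set to a minimum of 10 counts per mouse, immunoglobulin genes left out of the library size, the replicate number as a block, each mouse left out). Of 316 recomputed values, 298 kept their direction or, for counts of members, stayed within 1.5 times, 13 reversed and 5 were counts that moved by over 1.5 times. Fold changes of single genes were also held to the adjusted threshold. For shares, ratios and summed levels only the direction was compared, not the overlap of the groups. The number of members at an unadjusted p under 0.05, 2 in the main test, was 5 without a filter and ran from 0 to 5 with mice left out (0 without Prdm1-CKO mouse 3, 1 without CTL mouse 2, 5 without CTL mouse 3). With the replicate block it was 4, with 0 members called, and the unadjusted p of Ighg2b was 0.00370 in edgeR. Same-numbered mice share only a number: their deviations correlated at 0.158, 0.028 and 0.016, and replicate numbers were taken as unpaired. The block also turned the log2 fold change of Igha to 0.66, and leaving out mice moved it from -0.60 to 1.58 (1.58 without CTL mouse 3, 0.34 without Prdm1-CKO mouse 1).

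With mice left out, the share difference ran from -6.28 to 10.5 points for Ighm, from -11.3 to 4.49 for Igha, from -10.8 to 6.11 for the switched isotypes together (each turned without CTL mouse 3) and from -0.265 to 0.332 for Ighg2c (-0.0681 without CTL mouse 1 or 2). The log2 ratio difference ran from -0.96 to 1.42 for switched to unswitched (turned without CTL mouse 1), from -0.0424 to 0.281 for Igkc to heavy chain (turned without Prdm1-CKO mouse 2) and from -2.76 to 2.04 for Ighg2c to Ighg1 (0.57 without CTL mouse 3). The cause was not tested. Counts per kb, counting Ighg2b and Ighg2c as 1 isotype, thinning to 7147601 counts and library totals without TMM turned no direction. Depth limits Ighe, Ighg1 and Ighg2c, where zeros were frequent, and 3 mice against 3, or 3 against 2, limit the permutation p to 0.1.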
